A study of Mus musculus with 6 samples.

Results

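The genes described here are 10 genes of antigen presentation and of macrophages, taken by name out of the 38715 genes of a mouse testis RNA-seq table. They are the major histocompatibility complex (MHC) class II genes H2-Aa, H2-Ab1 and H2-Eb1, the class II invariant chain gene Cd74, Aif1, the complement genes C1qa, C1qb and C1qc, and the macrophage genes Csf1r and Cd68. All 10 were found in the table. There were 3 libraries titled Middle and 3 titled Control. Middle is read here as the MES-exposed arm, since the design names just that arm and a control arm. The labels do not spell out MES, and the sources used here give no dose, strain or age, and no time of exposure beyond the words early life in the title. Whole testis was the tissue in both groups, so a transcript cannot be assigned to a cell type. Nothing says whether each library is a separate animal, and p-values therefore measure the spread between these libraries alone. The series title concerns testosterone, TGF-β1 and GATA2, and the labels state no question about immune cells. The genes were chosen by name with the RPKM of these 6 libraries and their differences between Middle and Control known. Those differences are therefore given as a description, with no p-value for any of the 10 genes. For the same reason, counts of the 10 genes that passed a threshold support nothing.

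MHC class II molecules are pairs of an alpha and a beta chain that show peptides from engulfed proteins to helper T cells. H2-Aa encodes the alpha chain and H2-Ab1 the beta chain of one such pair, and H2-Eb1 encodes the beta chain of another. Cd74 encodes the invariant chain, which fills the peptide groove and guides new class II molecules to the endosome. C1qa, C1qb and C1qc encode the 3 chains of C1q, which starts the classical complement pathway and is made largely by macrophages. Csf1r encodes the receptor for the macrophage growth factors Csf1 and Il34, Cd68 a lysosomal glycoprotein of macrophages, and Aif1 an actin-bundling protein widely used as a macrophage marker. In mouse testis, macrophages lie in the interstitium beside Leydig cells and at the surface of the tubules, and those at the tubules are known to carry more class II and less Csf1r.

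The stretch before the start of class II genes is known for an X box and a Y box, which are read together by the RFX complex, NF-Y and the coactivator CIITA. The promoters of H2-Aa and H2-Eb1, both lower in mean level in Middle, are shown with that of C1qb, which was higher. Each line gives the 150 bases before the gene's start, 5′ to 3′ on the gene's own strand, from RefSeq on GRCm38.p6. Capitals in the class II promoters mark CTNGCAACT, a core of the X box with N for any base, and then CTGATTGG, the Y box. In C1qb they mark GAGGAA, the core bound by the macrophage factor PU.1.
H2-Aa: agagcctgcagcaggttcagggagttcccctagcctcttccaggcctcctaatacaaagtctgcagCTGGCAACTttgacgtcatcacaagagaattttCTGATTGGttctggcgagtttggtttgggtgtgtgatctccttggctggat
H2-Eb1: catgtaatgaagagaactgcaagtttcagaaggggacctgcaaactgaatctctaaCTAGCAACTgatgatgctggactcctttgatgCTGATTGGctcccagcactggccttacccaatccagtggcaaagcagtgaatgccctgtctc
C1qb: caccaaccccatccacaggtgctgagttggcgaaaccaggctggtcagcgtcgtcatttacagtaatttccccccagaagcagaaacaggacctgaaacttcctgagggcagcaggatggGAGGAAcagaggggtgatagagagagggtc

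The windows lie at chr17:34287824-34287973 on the minus strand for H2-Aa, at chr17:34305717-34305866 on the plus strand for H2-Eb1 and at chr4:136886201-136886350 on the minus strand for C1qb, all in GRCm38.p6 coordinates. The X box core began 84 bases before the start of H2-Aa and 94 bases before that of H2-Eb1. The Y box followed after 24 bases in H2-Aa and after 23 bases in H2-Eb1. On both strands of the same window, 0.514% of the 32851 promoters of the RefSeq table held the X box core, 3.16% the Y box and 0.0213% both. The letters of the X box core were settled with these 2 promoters in view, so the shares only say how rare the letters are. GAGGAA was found in 14.5% of the windows, and no motif here overlapped another. The RefSeq table also held C1qc, Cd68 and Aif1, whose windows had neither the X box core nor the Y box. The window of Aif1, which was lower in Middle, also held GAGGAA, on the minus strand and 7 bases before the start. H2-Ab1 and C1qa are named only.

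Reads summed over all genes came to 46649138 to 56435498 per library in Middle and 38820385 to 58389391 in Control. Of the 38715 genes, 15040 had a group mean of at least 1 RPKM (reads scaled to gene length and to the library's total) in 1 group or both and were tested. The test, limma on log2(RPKM + 1), called 8 of them at an adjusted p under 0.05, and 0 of those 8 were among the 10 genes described here. Middle replicate 1 stood apart from the other libraries on the first principal component (50.1% of the variance). This component also split the groups. Its scores were -27.0, -0.97 and -4.9 in Middle replicates 1 to 3 and 15.0, 6.48 and 11.4 in Control replicates 1 to 3. In Middle replicate 1 the deviations of genes from their means over the 6 libraries followed GC content with a rank correlation of 0.461. That correlation was 0.0198 and -0.0674 in Middle replicates 2 and 3 and -0.303 to -0.223 in Control. Differences with the trend of each library on GC content removed are given for the genes whose groups did not overlap. The median log2 difference over all tested genes was 0.03, with 55.9% of genes above 0.

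Mean levels over the 6 libraries ran from 0.357 RPKM for H2-Aa to 203 for Aif1, and the order of some genes between these turned with the group. Aif1 had a mean of 203 RPKM over the 6 libraries, 28.6 to 37.3 times the next highest of the 10 in each library. H2-Ab1 followed at 5.91 ± 1.06, Cd74 at 5.20 ± 1.20 and C1qb at 5.17 ± 0.70 RPKM (SD over 6 libraries). H2-Ab1 was above Cd74 in 6 of 6 libraries, by 0.715 ± 0.381 RPKM (mean and SD of the difference). The difference of Cd74 and C1qb was 0.0312 ± 1.67 RPKM over the 6 libraries, and its sign turned with the group. C1qb lay above both Cd74 and H2-Ab1 in every Middle library and below both in every Control library. C1qa was next at 3.83 ± 0.97 RPKM, below C1qb in 5 of 6 libraries. C1qc at 2.03 ± 0.35, H2-Eb1 at 1.85 ± 0.59 and Cd68 at 1.81 ± 0.30 RPKM were neighbours. Their differences lay within their spread over the 6 libraries, which includes the difference between the groups. Csf1r at 1.13 ± 0.14 and H2-Aa at 0.357 ± 0.069 RPKM were lowest.

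Other macrophage and leukocyte markers lay on both sides of Csf1r and Cd68, and all those listed here lay far below Aif1. The Fc receptor gene Fcgr3 averaged 8.27 RPKM over the 6 libraries, the lysozyme gene Lyz2 8.18 and the leukocyte gene Srgn 3.05, all above Cd68. Others were lower. Adgre1, which encodes the macrophage antigen F4/80, lay at 0.306 to 0.463 RPKM over the 6 libraries, and Cx3cr1, a chemokine receptor, at 0.343 to 0.741. The common leukocyte gene Ptprc lay at 0.0300 to 0.0914 RPKM. Adgre1, Cx3cr1, Ptprc and Srgn are named outside the rule for naming genes. Which cells held the Aif1 transcripts was not tested.

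**Figure D1:**
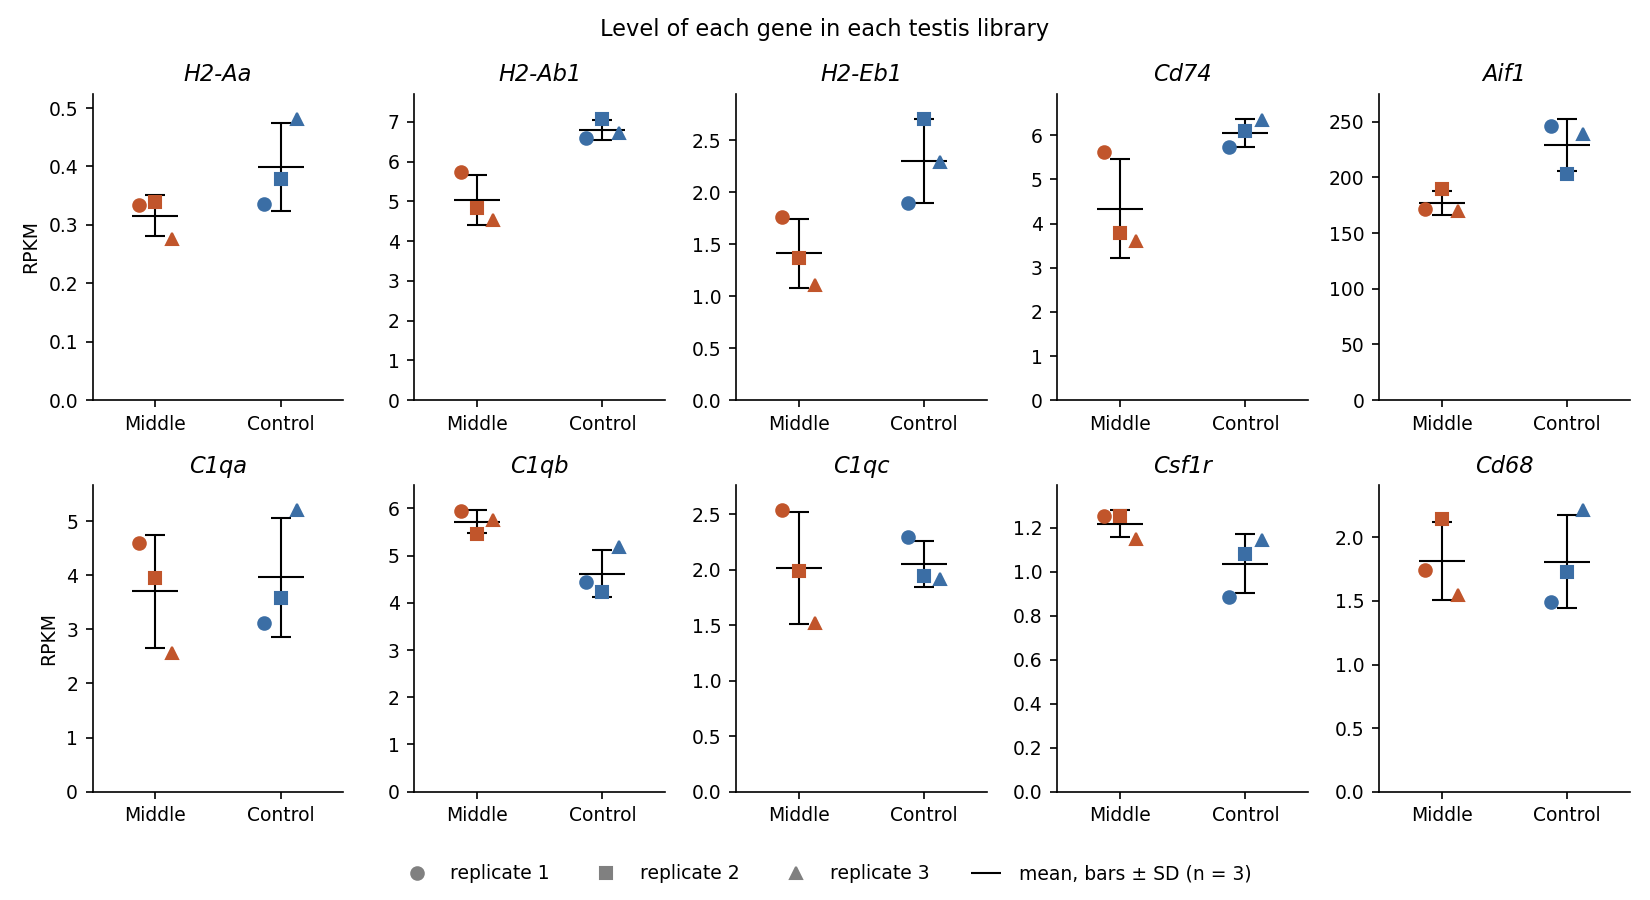
RPKM of each of the 10 genes in the 3 Middle libraries (left) and the 3 Control libraries (right), each panel with its own axis from 0, with the mean and SD of each group (n = 3). Middle lies wholly below Control for H2-Ab1, H2-Eb1, Cd74 and Aif1 and wholly above it for C1qb and Csf1r, and the groups overlap for H2-Aa, C1qa, C1qc and Cd68.

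H2-Ab1, H2-Eb1, Cd74 and Aif1 were lower in every Middle library than in any Control library, at ratios of the means of 0.614 to 0.773. C1qb and Csf1r were higher in every Middle library, at ratios of 1.24 and 1.18, and the groups overlapped for the other members of the set. Of the 10 genes, 9 passed the filter on low values, each of them in both groups, and H2-Aa did not pass. For 4 of the 9 each Middle library was lower than each Control library, which also held for 11.4% of all tested genes. For 2 of the 9 each Middle library was higher, against 17.9% of all tested genes. The limma test called 0 of the 9 at an adjusted p under 0.05, where the share over all tested genes was 0.0532% (0.00665% higher and 0.0465% lower in Middle). An unadjusted p under 0.05 was reached by 5 of the 9, against 20.7% of all tested genes. Since the genes were chosen with this comparison in view, nothing is read from these counts. The median log2 difference of the 9 genes was -0.08 with 3 above 0 and 6 below. It ranged from -0.22 (without Middle replicate 1) to 0.07 (without Middle replicate 3) when 1 library was left out, and was -0.21 without Control replicate 1 and -0.13 without Middle replicate 2 or without Control replicate 2. It was -0.34 with sample weights and -0.18 with the GC trend removed.

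H2-Ab1 (chromosome 17, 34476663 to 34488393 on GRCm39, plus strand) was at 5.74, 4.82 and 4.53 RPKM in Middle replicates 1 to 3, against 6.60, 7.08 and 6.71 in Control replicates 1 to 3. Every Middle library was lower than every Control library, and the Control libraries lay close together. The group means were 5.03 ± 0.63 RPKM in Middle and 6.80 ± 0.25 in Control (SD, n = 3 each), a ratio of 0.740 and a log2 difference of -0.38 (SE 0.09). The values rested on 578 to 1061 reads per library. With the GC trend removed the difference was -0.46.

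H2-Eb1 (chromosome 17, 34524841 to 34535648, plus strand) showed the lowest ratio of the 10 genes. Its level was 1.76, 1.37 and 1.10 RPKM in Middle replicates 1 to 3, against 1.90, 2.70 and 2.29 in Control replicates 1 to 3. Middle replicate 1 came near Control replicate 1, and the groups did not overlap. The means were 1.41 ± 0.33 RPKM in Middle and 2.30 ± 0.40 in Control (SD, n = 3 each), a ratio of 0.614. The log2 difference was -0.45 (SE 0.13) on the log2(RPKM + 1) scale, which understates the change of low genes, and -0.73 (SE 0.20) with limma-voom on the reads behind the values. It was -0.52 with the GC trend removed.

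H2-Aa (chromosome 17, 34501718 to 34506797, minus strand), whose product pairs with that of H2-Ab1, was at 0.334, 0.339 and 0.275 RPKM in Middle replicates 1 to 3, against 0.335, 0.379 and 0.482 in Control replicates 1 to 3. The groups barely overlapped, with Middle replicate 2 just above Control replicate 1. The means were 0.316 ± 0.035 RPKM in Middle and 0.398 ± 0.075 in Control (SD, n = 3 each), a ratio of 0.793. Only 59 to 84 reads per library stood behind these values. Per length, the beta chain gene H2-Ab1 lay 14.2 to 17.2 times above H2-Aa in Middle libraries and 13.9 to 19.7 times above it in Control libraries, although their products form 1 pair. The levels were set with the gene lengths of the file, 3798 bases for H2-Aa and 2568 for H2-Ab1.

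Cd74 (chromosome 18, 60936920 to 60945724, plus strand) was at 5.62, 3.78 and 3.61 RPKM in Middle replicates 1 to 3, against 5.73, 6.10 and 6.35 in Control replicates 1 to 3. Middle replicate 1 lay just under the lowest Control library and the other Middle libraries far under it. The means were 4.34 ± 1.12 RPKM in Middle and 6.06 ± 0.31 in Control (SD, n = 3 each), a ratio of 0.716 and a log2 difference of -0.42 (SE 0.14). Without Middle replicate 1 the difference was -0.59, and with the GC trend removed it was -0.50. Only 12 exon bases of Cd74 were shared with another gene, the microRNA gene Mir5107.

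Fewer cells of a type and less RNA per cell cannot be told apart in these bulk samples, for class II genes and for all others described here. Other cells that carry class II were followed with their own markers. The 5 B cell genes summed to 1.33 to 1.56 RPKM in Middle and 1.37 to 1.46 in Control, with Cd79a, which encodes a part of the B cell receptor, at 0 in all Control libraries and Cd79b at 0 in at least 1. The dendritic cell genes, 6 found of 7, summed to 3.05 to 3.89 RPKM in Middle and 3.25 to 3.995 in Control, with Clec9a and Xcr1 at 0 in at least 1 library each. Of these lists 1 and 2 genes passed the filter, all 3 below 0 and none called. Their part in the class II values was not tested.

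Aif1 (chromosome 17, 35389967 to 35395044, minus strand) was at 172, 189 and 170.1 RPKM in Middle replicates 1 to 3, against 246, 203 and 238 in Control replicates 1 to 3. Control replicate 2 was the lowest of its group and still above Middle replicate 2. The means were 177 ± 10.7 RPKM in Middle and 229 ± 23.3 in Control (SD, n = 3 each), a ratio of 0.773 and a log2 difference of -0.37 (SE 0.09), on 12463 to 20177 reads per library. With the GC trend removed the difference was -0.40. Of 8 spermatid genes followed as markers of another cell type, all 8 lay below 0 in the same comparison (median -0.25) and 0 were called. For 4 of them every Middle library was lower than every Control library. Of all tested genes, 11.4% were lower in this way, and 55.9% lay above 0. The summed level of the 8 genes was 25583 to 28086 RPKM in Middle and 27242 to 30174 in Control. None of these 8 was at 0 in a library. Their part in the Aif1 values was not tested.

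Among the C1q chain genes, C1qb (chromosome 4, 136607440 to 136613498, minus strand) was the one whose groups did not overlap, and it was higher in Middle. It was at 5.94, 5.46 and 5.75 RPKM in Middle replicates 1 to 3, against 4.44, 4.23 and 5.19 in Control replicates 1 to 3. Every Middle library lay above every Control library, Control replicate 3 coming closest. The means were 5.72 ± 0.24 RPKM in Middle and 4.62 ± 0.50 in Control (SD, n = 3 each), a ratio of 1.24 and a log2 difference of 0.26 (SE 0.08). With the GC trend removed the difference was 0.17.

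Its neighbours on chromosome 4, C1qa and C1qc, had overlapping groups. C1qa (136623228 to 136626114, minus strand) was at 4.59, 3.96 and 2.56 RPKM in Middle replicates 1 to 3, against 3.11, 3.57 and 5.20 in Control replicates 1 to 3. The groups overlapped throughout, and the spread within each group was wider than the difference of -0.08 (SE 0.20) between them. C1qc (136617115 to 136620376, minus strand) was at 2.54, 1.99 and 1.52 RPKM in Middle replicates 1 to 3, against 2.30, 1.94 and 1.92 in Control replicates 1 to 3. Here too the Middle libraries reached both above and below Control, with a difference of -0.03 (SE 0.13). The C1qa difference was 0.11 without Middle replicate 3 and 0.09 without Control replicate 3. That of C1qc was 0.09 without Middle replicate 3 and 0.03 without Control replicate 1, so neither gene has a direction that holds. The C1q chains rested on 144 to 353 reads per library.

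**Figure D2:**
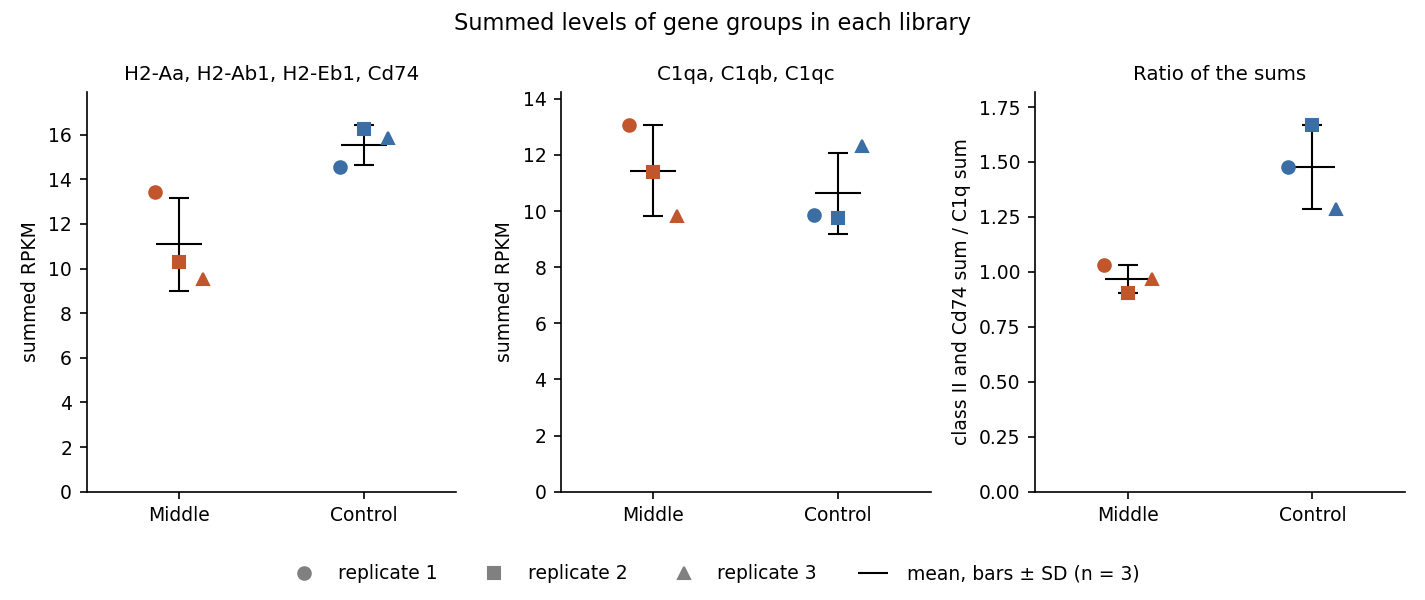
Summed RPKM of H2-Aa, H2-Ab1, H2-Eb1 and Cd74 (left panel), of C1qa, C1qb and C1qc (middle panel), and the ratio of these sums (right panel), in 3 Middle and 3 Control libraries with the mean and SD of each group. The class II and Cd74 sum lies lower in every Middle library, the C1q sums overlap, and the ratio is 0.904 to 1.03 in Middle against 1.29 to 1.67 in Control.

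Summed by role, the class II genes and Cd74 came to 13.5, 10.3 and 9.51 RPKM in Middle replicates 1 to 3, against 14.6, 16.3 and 15.8 in Control replicates 1 to 3. The sum was lower in every Middle library. The C1q genes summed to 13.1, 11.4 and 9.83 RPKM in Middle replicates 1 to 3, against 9.84, 9.75 and 12.3 in Control replicates 1 to 3. These sums overlapped, and the ratio of the class II and Cd74 sum to the C1q sum was 0.967 ± 0.063 in Middle and 1.48 ± 0.19 in Control (SD, n = 3 each). The ratio was formed after the values were seen and is a description.

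Csf1r (chromosome 18, 61233670 to 61265221, plus strand) was at 1.25, 1.25 and 1.15 RPKM in Middle replicates 1 to 3, against 0.884, 1.08 and 1.14 in Control replicates 1 to 3. Middle replicate 3 lay barely above Control replicate 3, so the groups were barely apart. The means were 1.22 ± 0.06 RPKM in Middle and 1.04 ± 0.13 in Control (SD, n = 3 each), a ratio of 1.18 and a log2 difference of 0.13 (SE 0.08). The size of the difference was not stable: it was 0.07 without Control replicate 1, 0.06 with the GC trend removed, 0.22 with a pseudocount of 0.1 and 0.25 with limma-voom. Of the exon bases of Csf1r, 15.1% were shared with Hmgxb3 on the other strand. The sources used here do not say whether reads were counted by strand, so the value is uncertain. Hmgxb3 was itself at 2.55, 2.29 and 2.53 RPKM in Middle replicates 1 to 3, against 1.74, 2.11 and 1.92 in Control replicates 1 to 3. It was higher in every Middle library than in any Control library. Its part in the Csf1r values was not tested.

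Cd68 (chromosome 11, 69555039 to 69556979, minus strand) was at 1.75, 2.15 and 1.55 RPKM in Middle replicates 1 to 3, against 1.49, 1.73 and 2.21 in Control replicates 1 to 3. The Middle range lay within the Control range. The means were 1.82 ± 0.30 RPKM in Middle and 1.81 ± 0.37 in Control (SD, n = 3 each), with a log2 difference of 0.005 (SE 0.12) on 100 to 127 reads per library. Its sign turned under median-of-ratios and upper-quartile scaling.

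**Figure D3:**
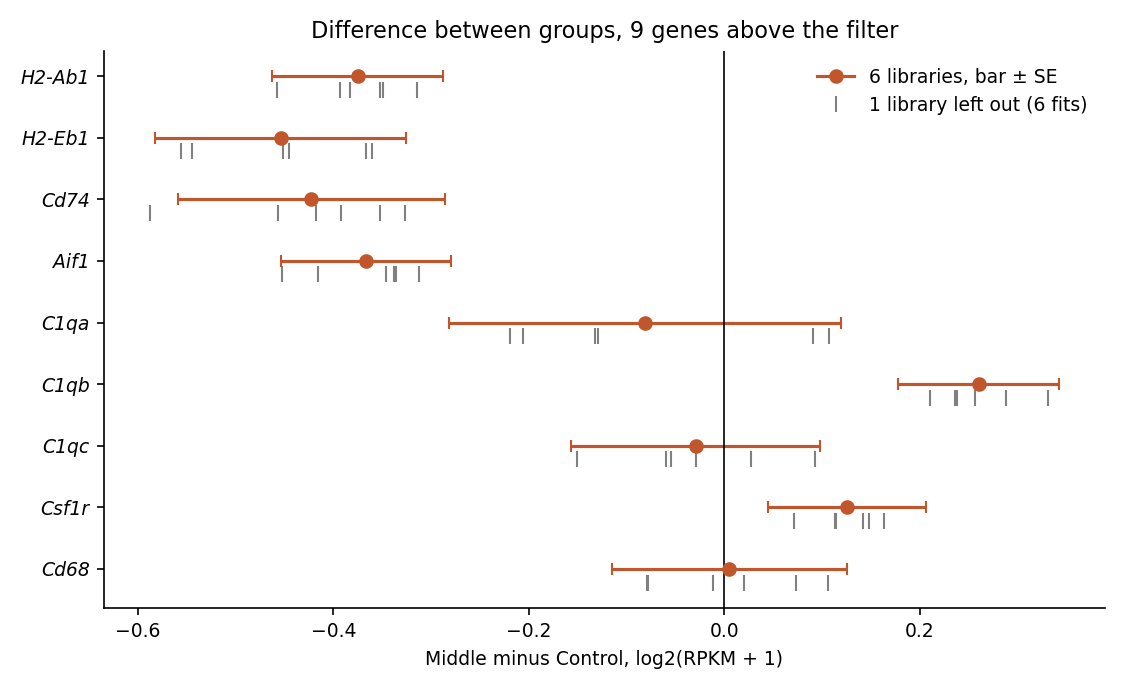
Log2 difference of Middle minus Control, on the log2(RPKM + 1) scale, for the 9 genes above the filter, with the SE as bars and the values of 6 fits that each leave out 1 library as grey ticks. H2-Ab1, H2-Eb1, Cd74 and Aif1 stay below 0 in all 6 fits and C1qb and Csf1r above 0. These signs were fixed in advance, since the groups of these genes do not overlap. The ticks of C1qa, C1qc and Cd68 lie on both sides.

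Within a group, the same library was often the lowest or the highest for many of the 10 genes. Among the Middle libraries, replicate 3 was the lowest for 9 of the 10 genes, C1qb being the exception, and replicate 1 was the highest for 7. Among the Control libraries, replicate 1 was the lowest for 7 genes and replicate 3 the highest for 6. Some orders were close, with Aif1 at 172 and 170.1 RPKM in Middle replicates 1 and 3. These counts were not made over all tested genes, so nothing is read from them. The mean profile of the 9 tested genes, centred on the log2 scale, was 0.06, -0.06 and -0.22 in Middle replicates 1 to 3 and 0.004, 0.05 and 0.16 in Control replicates 1 to 3.

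Outside the 10 genes, the 5 tested genes whose centred profile over the 6 libraries lay nearest to that mean profile were Gm11906, Syce1l, H2al1r-ps, Gsdmcl1 and 4930553M12Rik. Their root mean square differences from it were 0.038 to 0.044 on the log2 scale. None is a gene of antigen presentation in the lists used here, and none was called (adjusted p 0.281 to 0.462, limma). Gm11906, the nearest, was at 7.52, 6.97 and 6.33 RPKM in Middle replicates 1 to 3, against 7.10, 7.38 and 8.64 in Control replicates 1 to 3.

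The helpers of the class II pathway lay on both sides of 0. Of 15 listed genes 9 were tested, with 4 above 0, 5 below, 0 called (adjusted p 0.178 to 0.951, limma) and a median of -0.01, against 0.03 over all tested genes. H2-Oa, H2-Ob and H2-Eb2 were at 0 in at least 1 library each. The endosomal protease gene Ctsl was at 23.6 ± 1.32 RPKM in Middle and 22.5 ± 0.74 in Control, Lgmn at 11.2 ± 1.13 and 9.92 ± 0.59, and Ctss, the protease that trims the invariant chain, at 5.61 ± 0.30 and 5.94 ± 0.35 (SD, n = 3 each). Rfxap, a subunit of the RFX complex that binds the X box, was at 16.5 ± 0.51 RPKM in Middle and 13.8 ± 0.19 in Control (SD, n = 3 each), higher in every Middle library, with a log2 difference of 0.24 (SE 0.06) that did not pass (adjusted p = 0.178, limma). Ciita, the class II coactivator, is named outside the rule: it lay at 0.00372 to 0.0294 RPKM, which was 2 to 15 reads per library, too few to compare.

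Class I presentation, which shows peptides from inside the cell to killer T cells, was measured at higher levels. Of 17 listed genes 11 were tested, with 8 above 0, 3 below and 0 called (median 0.11, adjusted p 0.1995 to 0.969, limma). The chaperone genes Calr and Pdia3 were at 440.3 ± 26.0 and 126 ± 8.20 RPKM in Middle, against 407 ± 10.9 and 125 ± 0.93 in Control (SD, n = 3 each). Canx, another chaperone gene of the pathway, was at 36.3 ± 5.20 RPKM in Middle and 43.04 ± 2.51 in Control, and Tapbp, which holds class I molecules at the peptide transporter, at 30.8 ± 3.39 and 27.6 ± 0.42 (SD, n = 3 each). Tapbp was higher in every Middle library, and it did not pass (adjusted p = 0.327, limma). Nlrc5, the coactivator of class I genes, was below the filter and is named after its values were seen: it was at 0.152 ± 0.012 RPKM in Middle and 0.257 ± 0.074 in Control (SD, n = 3 each), lower in every Middle library.

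Among 23 other macrophage genes 8 passed the filter, 7 of them above 0 and 1 below, with 0 called (median 0.09, adjusted p 0.178 to 0.896, limma). Their summed level over all 23 was 31.1 to 34.5 RPKM in Middle and 25.8 to 30.3 in Control, with Lyve1 at 0 in at least 1 library. Fcgr3, an Fc receptor of phagocytes, was at 9.34 ± 0.58 RPKM in Middle and 7.20 ± 0.26 in Control (SD, n = 3 each), a log2 difference of 0.33 (SE 0.07) that did not pass (adjusted p = 0.178, limma). It was higher in every Middle library than in any Control library. The lysozyme gene Lyz2 was at 8.63 ± 1.22 and 7.74 ± 0.93 RPKM and the mannose receptor gene Mrc1 at 1.95 ± 0.26 and 1.86 ± 0.13 in Middle and Control (SD, n = 3 each), with overlapping libraries.

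The signals that recruit and feed macrophages were all below the filter. Csf1 averaged 0.396 ± 0.030 RPKM in Middle and 0.347 ± 0.065 in Control, and Il34 0.185 ± 0.067 and 0.251 ± 0.055 (SD, n = 3 each). None of the 11 genes of that list was tested.

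Complement genes other than C1q gave 11 tested of 18, with 8 above 0, 3 below and 0 called (median 0.04, adjusted p 0.286 to 0.960, limma). Clu, a complement inhibitor that Sertoli cells make in quantity, was at 141 ± 8.13 RPKM in Middle and 137 ± 4.48 in Control. The membrane inhibitors Cd59a and Cd55 were at 4.39 ± 1.17 and 3.19 ± 0.25 RPKM in Middle, against 4.65 ± 0.69 and 3.10 ± 0.12 in Control, and Serping1, which blocks the proteases C1r and C1s, was at 3.23 ± 0.73 and 2.63 ± 0.40 (SD, n = 3 each). The groups overlapped for all 11.

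Interferon gamma is known to induce class II genes, and the interferon response list gave 4 tested of 18, with 2 above 0, 2 below and 0 called (median -0.02, adjusted p 0.257 to 0.553, limma). The receptor genes Ifngr1 and Ifngr2 were at 3.69 ± 0.13 and 3.52 ± 0.53 RPKM in Middle, against 3.30 ± 0.33 and 3.93 ± 0.33 in Control (SD, n = 3 each). Ifit3, an antiviral gene, was at 0.642 ± 0.056 RPKM in Middle and 1.06 ± 0.42 in Control (SD, n = 3 each), lower in every Middle library but with a wide Control spread. Below the filter, and named after their values were seen, 3 genes induced by interferon gamma were also lower in every Middle library, with no test. The GTPase gene Gbp3 was at 0.357 ± 0.066 RPKM in Middle and 0.540 ± 0.074 in Control, Igtp at 0.209 ± 0.033 and 0.312 ± 0.035, and Irgm1 at 0.0711 ± 0.0145 and 0.122 ± 0.007 (SD, n = 3 each). Irf9, a transcription factor gene of the interferon response, was higher in every Middle library, at 0.323 ± 0.058 RPKM in Middle and 0.249 ± 0.031 in Control (SD, n = 3 each). These 4 genes rested on 16 to 106 reads per library. How often genes below the filter were lower in every Middle library was not counted, so nothing is read from Gbp3, Igtp and Irgm1. For the other listed genes below the filter the groups overlapped, with means on both sides. Irf8 was at 0.393 ± 0.051 RPKM in Middle and 0.301 ± 0.063 in Control, and Socs1 at 0.239 ± 0.059 and 0.202 ± 0.057. Irf1 was at 0.369 ± 0.044 and 0.368 ± 0.009, and Cxcl9 at 0.0634 ± 0.0279 and 0.129 ± 0.042 (SD, n = 3 each).

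**Figure D4:**
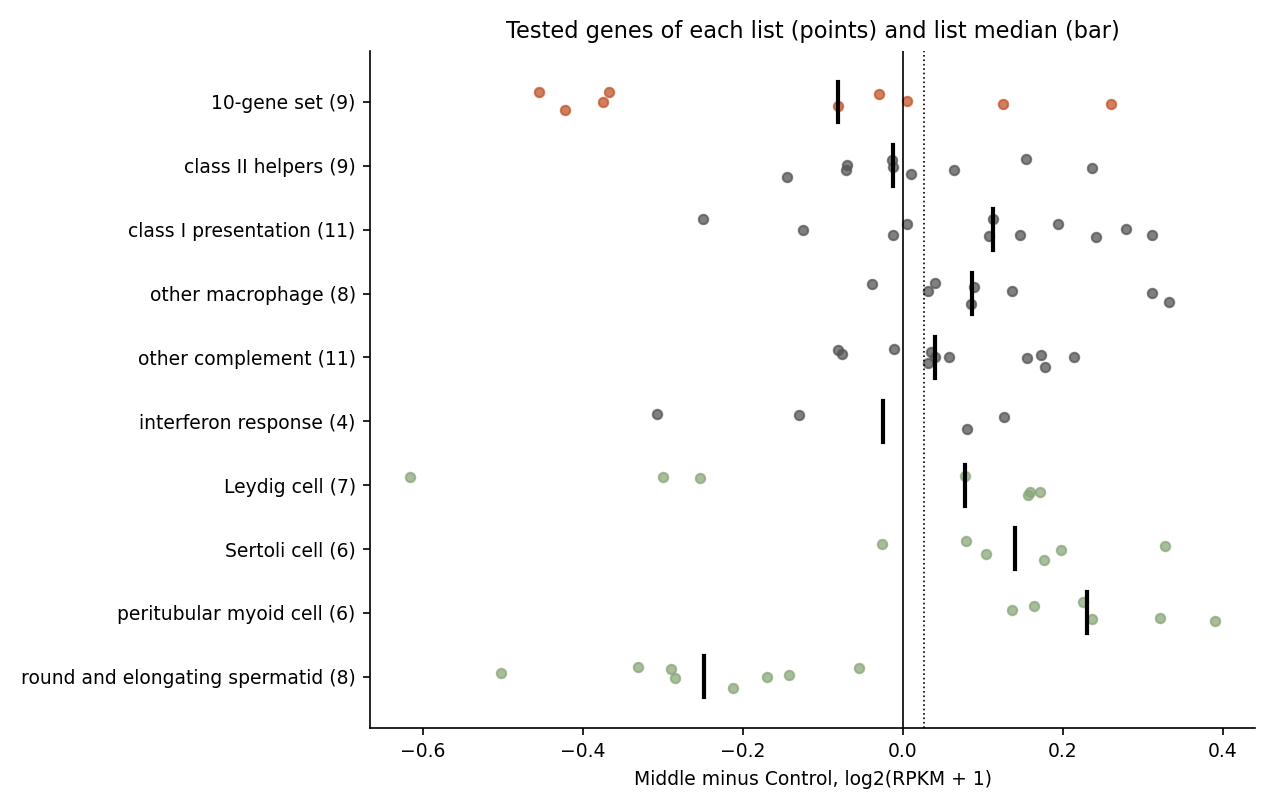
Log2 difference of Middle minus Control, on the log2(RPKM + 1) scale, for the tested genes of the 10-gene set and of 9 lists, with the number tested in parentheses, list medians as bars and the median of all tested genes as a dotted line. The 10-gene set is spread from -0.45 to 0.26, 7 of 8 other macrophage genes and 8 of 11 class I genes lie above 0, the peritubular myoid genes all above 0 and the spermatid genes all below.

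Markers of other testis cells were set beside the 10 genes in the same comparison, where 55.9% of all tested genes lay above 0. All 6 peritubular myoid genes lay above 0 (median 0.23, summed level 59.6 to 76.9 RPKM in Middle and 51.7 to 58.2 in Control). Of 6 tested Sertoli cell genes 5 lay above 0 (median 0.14, 66.1 to 79.8 RPKM in Middle and 61.9 to 68.2 in Control), and of 7 Leydig cell genes 4 (median 0.08, 299 to 332 RPKM in Middle and 270.3 to 325 in Control). Most of the Leydig cell sum was Insl3, at 225 RPKM over the 6 libraries. Star, Cyp11a1 and Cyp17a1 lay below 0. Star was lower in every Middle library, at 3.44 ± 0.67 RPKM in Middle and 5.80 ± 1.10 in Control (SD, n = 3 each). No gene of these lists was called or stood at 0 in a library. The 5 red blood cell genes summed to 12.1 to 17.2 RPKM in Middle and 11.1 to 13.7 in Control, the 9 T and NK cell genes to 2.52 to 3.38 and 2.92 to 3.30, and the 6 neutrophil genes to 1.71 to 1.92 and 2.05 to 2.10. Markers at 0 in at least 1 library were Cd8a, Nkg7 and Ncr1 of the T and NK cell list, S100a8, Ly6g, Retnlg and Csf3r of the neutrophil list, Cpa3 and Cma1 of the mast cell list, and Adam7 of the epididymis list. The 6 leukocyte genes summed to 3.83 to 4.15 RPKM in Middle and 3.99 to 4.73 in Control, the 6 endothelial genes to 1.70 to 2.04 and 1.38 to 1.70, the mast cell genes (2 found of 5) to 0.0393 to 0.112 and 0.0247 to 0.115, and the epididymis genes (3 found of 5) to 1.59 to 2.73 and 1.59 to 1.66. What part these cells had in the values of the 10 genes was not tested.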

How the data were processed

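RNA-seq was run on whole testis. The build was GRCm39 and trimming used fastp 0.23.0, per the submitters' processing notes. The sources used here name no aligner or counter and do not state strandedness. The authors deposited RPKM, with exon positions and gene lengths, per the file headers. RPKM times gene length gave whole reads for 100% of values (tolerance 0.001), 38820385 to 58389391 per library. Of genes with 1 to 20 reads, 73.3% to 74.7% had an even number, so reads need not be separate fragments. Without molecular identifiers, read numbers cover counting error only.

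Tested genes (15040) had 1 RPKM or more as the mean of either group. Their log2(RPKM + 1) values were compared, Middle minus Control, with limma 3.58.1 under R 4.3.3, with trended prior variance, two-sided, and with Benjamini-Hochberg adjustment over all of them at a threshold of 0.05. The procedure was also run on simulated data. These had the same noise setting for all genes and libraries and no GC trend, so they do not show how it performs here. Same-group libraries differed beyond sampling noise (chi-square over degrees of freedom 5.85 to 31.2) and each counted as a replicate. The 10 genes and all lists were chosen with earlier results of these data known. Beside the 10 genes, the naming rule takes the 4 tested genes of the highest mean level in each related list, any list gene that passed, and the 5 nearest profiles. Some genes that the rule takes are not reported here.

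GENCODE M21, matched on symbol for 34736 genes, supplied gene types and GC content. In a search for shared words of 50 bases, H2-Aa alone of the 10 genes shared any with other genes, at most 0.599% of its words with 1 gene. Alternatives were to drop the filter, to filter on CPM (1 in 3 libraries), a pseudocount of 0.1, scaling by upper quartile or by median of ratios, limma-voom with the recovered reads, a replicate block, sample weights, and each library left out. Removing the GC trend (loess, span 0.5) and keeping only protein-coding genes were added after seeing the data.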

Additional observations from a re-analysis of the deposited data

How the results depend on the processing

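The count of 8 called genes was 0 with no filter, 0 with a replicate block, 54 with sample weights, 4 over protein-coding genes only (fewer genes tested), and 0 to 3 with 1 library left out (3 without Control replicate 1, 1 without Middle replicate 1, 0 without any other). Of the 10 genes 0 were called in any of these except 1, H2-Ab1, with sample weights, and of the related lists 0 in any. Same-numbered libraries did not deviate together (correlations of deviations from the group means -0.153, -0.119 and 0.00544 for numbers 1 to 3). With 3 libraries per group these correlations cannot tell whether same-numbered libraries were paired, and the labels state no pairing. The number of the 10 genes above 0 was 3, and 2 to 5 with 1 library left out (5 without Middle replicate 3). The directions of H2-Ab1, H2-Eb1, Cd74, Aif1, C1qb and Csf1r held under every alternative run. Leaving out a library, the filters, the pseudocount, the replicate block and the sample weights could not turn them, since the groups did not overlap. The scalings and the removal of the GC trend could have turned them. With 1 library left out the C1qa difference ranged from -0.219 to 0.108 (0.0909 without Control replicate 3) and that of C1qc from -0.151 to 0.0926 (0.0272 without Control replicate 1). Cd68 turned to -0.00629 with median-of-ratios scaling, -0.00730 with upper-quartile scaling, -0.0794 with sample weights and -0.0539 with the GC trend removed, and ranged from -0.0787 to 0.106 with 1 library left out. The cause was not tested. H2-Aa, below the filter, had a difference of -0.09 with no filter. With 59 to 127 reads per library, H2-Aa and Cd68 are limited by depth.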
